A study of Mus musculus with 14 samples.

Results

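The genes described here serve antigen presentation by the major histocompatibility complex (MHC), the loading of peptides on MHC molecules, and the proteasome, which cuts proteins into many of those peptides. They were chosen by gene symbol alone, with no measured value in the rule. One group comprised the H2 genes (the mouse MHC), the peptide transporter genes Tap1 and Tap2, the loading factor Tapbp, the class I light chain B2m, the invariant chain Cd74, the class II regulator Ciita and the co-stimulatory genes Cd80 and Cd86. The other comprised the genes whose symbols run from Psma to Psmg. The rule found 68 genes, each with 1 probe, of 8841 named genes on the arrays, 28 in the MHC group and 40 in the proteasome group. All 68 passed the filter on dim probes. H2-Ke6, a steroid dehydrogenase, Psmc3ip, a recombination cofactor, and Psme3ip1, a binding partner of a proteasome activator, match the rule by name only and were kept. H2-K1, H2-D1, H2-DMb1 and Tapbpl were not analysed here.

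RNA came from primary macrophages of female C57BL/6 mice aged 6 weeks, elicited with thioglycollate, an irritant broth that draws inflammatory macrophages into the peritoneal cavity. It was hybridised to 14 one-colour arrays, 2 in each of 7 groups. The groups were GW3965 with LPS, GW7845 with LPS, LPS alone, GW3965 with poly(I:C), GW7845 with poly(I:C), poly(I:C) alone, and untreated cells. LPS is bacterial lipopolysaccharide, a ligand of the receptor TLR4, and poly(I:C) is a synthetic RNA duplex recognised by TLR3. GW3965 is an agonist of the liver X receptors and GW7845 an agonist of PPARγ, both nuclear receptors that bind lipids, and the title of the series names their repression of Toll-like receptor responses as its subject. An agonist was given only together with a stimulus. The series calls the arrays of a group biological replicates without saying whether they came from separate mice, so p-values measure the spread between these preparations. The sources used here name no dose or time.

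MHC class I molecules, made of a heavy chain and B2m, show peptides from proteins made inside the cell to cytotoxic T cells. The proteasome cuts those proteins, the transporter TAP carries the peptides into the endoplasmic reticulum, and tapasin, the product of Tapbp, bridges TAP to the class I molecule. Interferon is known to exchange the catalytic beta subunits of the proteasome core for 3 inducible ones, giving the immunoproteasome, and to raise the activator rings that open the core. Class II molecules show peptides from engulfed material to helper T cells, and their genes depend on the regulator CIITA. CD80 and CD86 give T cells the second, co-stimulatory signal.

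Values are the log2 of the deposited intensity, so 0 is the median probe of an array and a difference of 1 is a doubling. Differences carry the standard error (SE) of a limma fit of the 7 group means to all 14 arrays, and a probe was called at a Benjamini-Hochberg adjusted p under 0.05 over the 9584 tested probes. The arrays fell into 2 sets of 7 that differ in their low end: the 10th percentile of the values lay at 0.137 to 0.271 on set A and at 0.0549 to 0.0833 on set B. Each group had 1 array in each set, and each pair of values below gives the set A array first. A further fit took the set as a block (the array-set fit). It gives the same differences with smaller SEs. The bright end also differed between treatments: over the 405 tested probes with a mean log2 above 6, the median difference on set A was -0.52 for GW3965 with LPS against LPS, -0.55 for GW7845 with LPS against LPS and -0.57 for GW3965 with poly(I:C) against poly(I:C), where set B gave -0.04, -0.06 and -0.10. For GW7845 with poly(I:C) it was -0.12 on set A and 0.05 on set B. Of 6 measured macrophage markers, Lyz2 read 9.96 to 10.92, Cd14 5.66 to 9.71 and Msr1 5.88 to 7.36 over the 14 arrays. The others were dimmer, with Itgam at 2.86 to 3.97, Mertk at 0.82 to 2.82 and Adgre1 at -0.19 to 3.13. Neutrophil markers were mixed, with S100a8 at 3.73 to 5.8, Camp at -3.09 to 2.9, and Mpo and Elane at no more than -1.54 and -1.16 and on the floor of the scale on 4 and 3 arrays. T and NK cell, mast cell and eosinophil, and mesothelial and fibroblast markers were mostly low, with Cd3d at -1.93 to -0.94, Cpa3 at no more than -1.16 and Msln at no more than -1.42, but Gzma read 3.62 to 4.76 and Tpsb2 2.94 to 3.91. Markers of B cells and dendritic cells, which present antigen on class II too, were mixed. Blnk read 3.68 to 5.07, Ighm 1.9 to 4.12 and Cd79a 1.38 to 3.15, but Cr2 read -1.21 to 0.8 and Blk -2.82 to -0.41. Itgax, known from macrophages as well, read 3.29 to 5.66, but Flt3 read -2.19 to 0.31 and Ccr7 -3.76 to -1.02. In such bulk samples, a change in the number of cells of a type and a change in RNA per cell cannot be told apart.

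The first question was what LPS and poly(I:C) changed in the MHC group. Several class I genes, both transporter genes and Cd86 were higher with either stimulus, while most class II genes were not called. LPS raised 10 of the 28 genes and lowered none, where 5.21% of all tested probes were called higher and 2.6% lower. In the array-set fit 12 were higher and 1, H2-Ke6, was lower, where 9.59% of all probes were called higher and 8.18% lower. The median difference of the 28 was 0.72, and that of all tested probes was 0.06. Poly(I:C) raised 10 of 28 without a block and 12 with the set as a block, and lowered none in either fit, with a median of 0.86 against 0.10 for all probes. The percentages of all probes called higher were 6.08% and 10.6%, and those called lower 2.78% and 8.03%. Both comparisons use the same untreated arrays, so their values are set side by side and not taken as independent. Some markers of macrophages and neutrophils rose with the stimuli too. Of 6 measured macrophage markers, Adgre1, Cd14 and Msr1 were called higher with LPS, at 2.21, 2.69 and 1.34, and Cd14 and Msr1 with poly(I:C), at 2.86 and 1.25, with list medians of 0.97 and 1.08. Their summed linear intensity was 2730 and 1760 with LPS, 2770 and 1650 with poly(I:C), and 1940 and 1130 without treatment. Of 5 tested neutrophil markers Camp alone was called, at 4.59 with LPS (SE 0.57, adjusted p = 0.00011) and 4.71 with poly(I:C) (SE 0.57, adjusted p = 7.8e-05), and the sums of 6 were 46.7 and 31.5, 50.9 and 24, and 28.6 and 16.4. The part of such cells in the MHC and proteasome values was not tested.

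**Figure D1:**
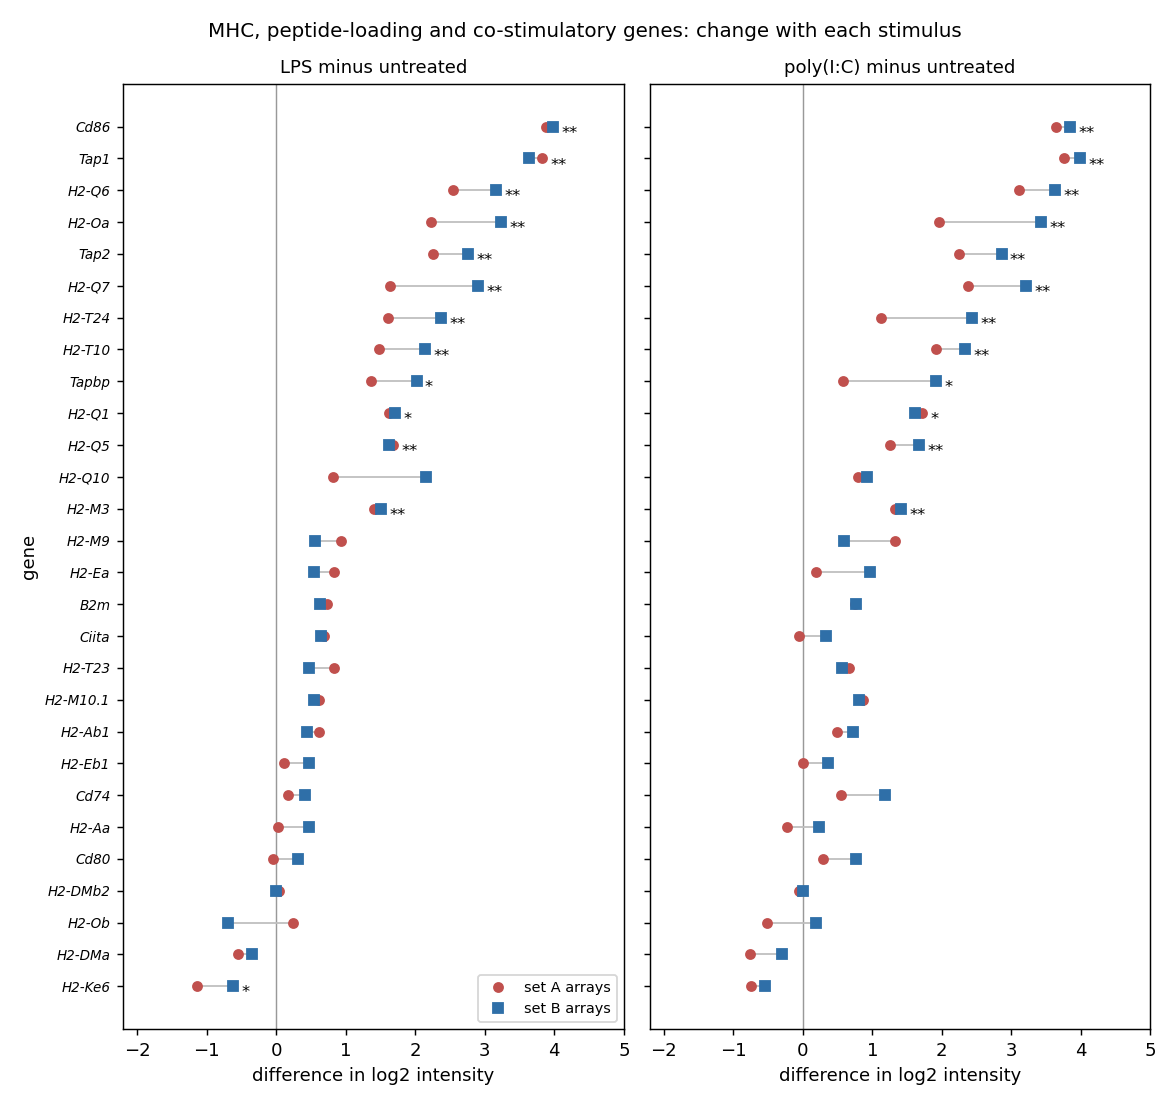
Difference in log2 intensity of each of the 28 MHC, peptide-loading and co-stimulatory genes, for LPS (left) and poly(I:C) (right) minus untreated. Circles are set A arrays and squares set B arrays, a double asterisk marks genes called without a block and a single asterisk those called in the array-set fit only. Cd86 and Tap1 lie near 4 in both panels, and H2-Ke6 is lowest with LPS at -1.14 and -0.62.

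Both peptide transporter genes rose with each stimulus. Tap1, which encodes a chain of the TAP transporter, read 3.77 and 4.49 on the LPS arrays, 3.70 and 4.84 on the poly(I:C) arrays, and -0.05 and 0.85 on the untreated arrays. The stimulated and untreated arrays did not overlap. With LPS 2041 of the 9584 tested probes were higher without overlap, and with poly(I:C) 1937. The difference was 3.73 with LPS (SE 0.55, adjusted p = 0.00056), or 13.2-fold, and 3.87 with poly(I:C) (SE 0.55, adjusted p = 0.00036), or 14.6-fold. Tap2, the other chain, read 6.23 and 6.22 with LPS, 6.23 and 6.31 with poly(I:C), and 3.97 and 3.46 without treatment. It rose by 2.51 with LPS (SE 0.32, adjusted p = 0.00013) and by 2.56 with poly(I:C) (SE 0.32, adjusted p = 1e-04). Tapbp was dim, at 0.14 and -1.48 with LPS, -0.64 and -1.58 with poly(I:C), and -1.23 and -3.50 without treatment. Its groups overlapped, but within each set the stimulated array was higher, and it was called in the array-set fit at 1.69 with LPS (adjusted p = 0.0092) and 1.25 with poly(I:C) (adjusted p = 0.044).

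Of 12 class I chain genes, B2m included, 6 were called higher with each stimulus and none lower, and 7 in the array-set fit. All 12 had a difference above 0 in both sets with each stimulus, where 38.4% of all probes did so for LPS and 39.4% for poly(I:C). The members of this family are close in sequence, and the specificity of each probe was not checked here, so values of single H2-Q and H2-T genes may hold signal of their neighbours. H2-Q6, a Qa-2 class I gene, read 5.86 and 6.03 with LPS, 6.43 and 6.5 with poly(I:C), and 3.32 and 2.87 without treatment. All 4 stimulated arrays lay above both untreated arrays, and the differences were 2.85 (SE 0.35, adjusted p = 1e-04) and 3.37 (SE 0.35, adjusted p = 1.8e-05). Its neighbour H2-Q7 read 4.22 and 3.88 with LPS, 4.96 and 4.19 with poly(I:C), and 2.58 and 0.98 without treatment. It rose by 2.27 with LPS (SE 0.47, adjusted p = 0.0071) and 2.80 with poly(I:C) (SE 0.47, adjusted p = 0.0014), and by 1.47 with LPS when the array titled untreated 2 was left out. H2-T10, known in mice as a ligand of gamma delta T cells, read 3.65 and 3.98 with LPS, 4.07 and 4.17 with poly(I:C), and 2.16 and 1.85 without treatment, a difference of 1.81 (SE 0.31, adjusted p = 0.0015) and 2.12 (SE 0.31, adjusted p = 0.00038).

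The other called class I genes rose less. H2-T24 rose by 1.99 with LPS (SE 0.44, adjusted p = 0.011) and by 1.79 with poly(I:C) (SE 0.44, adjusted p = 0.020), H2-Q5 by 1.65 (adjusted p = 0.024) and 1.46 (adjusted p = 0.044), and H2-M3, which presents formylated bacterial peptides, by 1.46 (adjusted p = 0.021) and 1.37 (adjusted p = 0.027). H2-Q1, at 1.66 with LPS and 1.67 with poly(I:C), was called in the array-set fit (adjusted p = 0.00019 and 0.00017) and not without the block (0.12 and 0.11). B2m was bright on every array, at 10.91 and 9.99 with LPS, 10.93 and 10.13 with poly(I:C), and 10.18 and 9.36 without treatment. Its differences of 0.68 (SE 0.49, adjusted p = 0.59) and 0.76 (SE 0.49, adjusted p = 0.51) did not pass. H2-T23, whose product shows leader peptides to receptors of NK cells, had differences of 0.65 (adjusted p = 0.80) and 0.61 (adjusted p = 0.84). H2-Q10, a secreted class I chain known from the liver, H2-M9 and H2-M10.1 were dim, with differences of 1.49, 0.75 and 0.57 for LPS and 0.86, 0.96 and 0.84 for poly(I:C), none called.

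Cd86 had the largest difference of the 28 genes with LPS. It read 5.83 and 6.42 with LPS, 5.59 and 6.28 with poly(I:C), and 1.94 and 2.44 without treatment, with no overlap. The differences were 3.93 (SE 0.47, adjusted p = 8.7e-05), or 15.2-fold, and 3.74 (SE 0.47, adjusted p = 0.00012), or 13.4-fold. Cd80, the other ligand of the same T cell receptors, read 1.66 and 1.5 with LPS, 1.99 and 1.95 with poly(I:C), and 1.70 and 1.19 without treatment, and its differences of 0.14 (SE 0.35, adjusted p = 0.96) and 0.52 (SE 0.35, adjusted p = 0.54) did not pass.

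**Figure D2:**
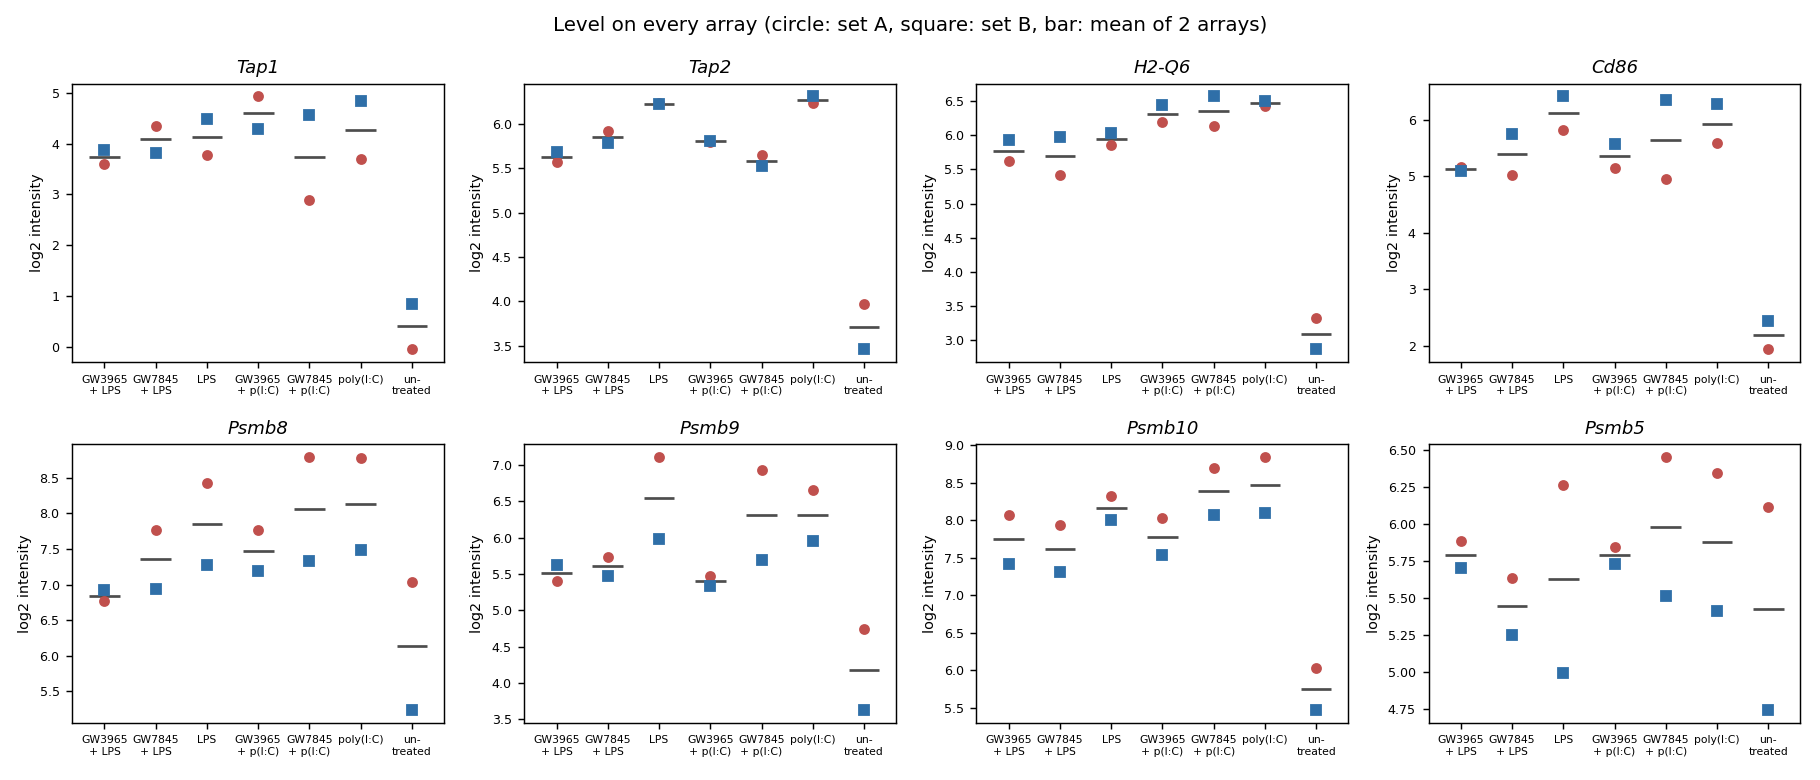
Log2 intensity on each of the 14 arrays for 4 MHC, transport and co-stimulation genes (top) and 4 proteasome core genes (bottom), by group. Circles are set A arrays, squares set B arrays and bars the mean of the 2. For Tap1, Tap2, H2-Q6, Cd86, Psmb9 and Psmb10 the LPS and poly(I:C) arrays all lie above both untreated arrays. Of the 9584 tested probes, 2041 are higher without overlap with LPS and 1937 with poly(I:C). For the constitutive subunit Psmb5 the stimulated and untreated arrays overlap, from 4.74 on an untreated array to 6.34 on a poly(I:C) array.

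Some calls rested on particular arrays. When each array of a comparison was left out in turn, without a block, Cd86, Tap1, Tap2, H2-Q6 and H2-T10 stayed called with both stimuli, as did H2-Q7 with poly(I:C). In such a fit the array left alone is assumed to vary like the other groups. With LPS, H2-Q7, H2-Oa and H2-M3 lost the call without LPS 1 or untreated 2, H2-T24 without LPS 1, LPS 2 or untreated 2, and H2-Q5 without any 1 of the 4. With poly(I:C), H2-Oa and H2-M3 lost it without poly(I:C) 1 or untreated 2, H2-T24 without poly(I:C) 2 or untreated 2, and H2-Q5 without untreated 1, untreated 2 or poly(I:C) 2. Under the set block all of these calls held in every such fit, except H2-T24 with poly(I:C), which had adjusted p = 0.057 without untreated 2 and 0.086 without poly(I:C) 2. Among the genes called with that block alone, H2-Q1 held throughout. Tapbp lost the call with LPS without LPS 1 or untreated 2 and with poly(I:C) without untreated 2, poly(I:C) 1 or poly(I:C) 2, and without untreated 2 its differences were 1.12 and 0.68, or 0.55 and 0.11 without a block. H2-Ke6 lost it without LPS 1, LPS 2 or untreated 1, and its difference without a block was -0.25 without untreated 1 and -1.51 without untreated 2.

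The start regions of these genes were read from RefSeq (GRCm38.p6), which gave a window of 250 bases before to 50 after the start for 53 of the 68 genes, 18 in the MHC group and 35 in the proteasome group. The windows below are shown because they belong to genes that rose together and to class II and light chain genes that were not called. Capitals mark matches, on either strand, to 4 motifs: the Y box CTGATTGG, bound by NF-Y in MHC promoters, the interferon-stimulated response element (GAAA, any 2 bases, GAAA), the gamma-activated site TTCNNNGAA and the kappaB site (GGG, any 2 bases, TTTCC). All are written on the plus strand, which is the strand of each of these genes. Tap1 is at chr17:34187306-34187605, H2-Q6 at chr17:35424600-35424899, H2-Eb1 at chr17:34305617-34305916, B2m at chr2:122147437-122147736 and Psmb8 at chr17:34197945-34198244.
Tap1: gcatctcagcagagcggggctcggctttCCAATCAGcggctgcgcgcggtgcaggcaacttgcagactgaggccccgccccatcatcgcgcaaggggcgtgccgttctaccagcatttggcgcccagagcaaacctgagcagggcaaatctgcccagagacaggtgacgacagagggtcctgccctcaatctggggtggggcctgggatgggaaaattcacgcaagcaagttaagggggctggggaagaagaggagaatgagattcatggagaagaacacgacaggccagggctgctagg
H2-Q6: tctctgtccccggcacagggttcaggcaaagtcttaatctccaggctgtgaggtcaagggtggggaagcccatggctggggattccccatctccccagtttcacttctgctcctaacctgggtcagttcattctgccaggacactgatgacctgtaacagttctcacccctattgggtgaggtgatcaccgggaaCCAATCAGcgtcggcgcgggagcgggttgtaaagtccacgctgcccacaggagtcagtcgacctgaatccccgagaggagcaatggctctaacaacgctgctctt
H2-Eb1: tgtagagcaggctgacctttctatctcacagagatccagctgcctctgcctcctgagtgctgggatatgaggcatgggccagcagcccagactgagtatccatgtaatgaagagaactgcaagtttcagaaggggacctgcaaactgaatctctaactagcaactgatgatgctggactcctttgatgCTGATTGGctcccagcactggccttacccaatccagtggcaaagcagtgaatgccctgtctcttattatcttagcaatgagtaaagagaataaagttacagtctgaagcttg
B2m: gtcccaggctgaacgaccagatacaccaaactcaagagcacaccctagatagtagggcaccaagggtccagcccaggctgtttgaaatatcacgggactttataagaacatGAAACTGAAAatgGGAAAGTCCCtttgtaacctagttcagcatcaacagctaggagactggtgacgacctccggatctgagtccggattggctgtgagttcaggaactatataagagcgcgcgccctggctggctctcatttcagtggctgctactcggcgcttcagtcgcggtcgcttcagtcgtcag
Psmb8: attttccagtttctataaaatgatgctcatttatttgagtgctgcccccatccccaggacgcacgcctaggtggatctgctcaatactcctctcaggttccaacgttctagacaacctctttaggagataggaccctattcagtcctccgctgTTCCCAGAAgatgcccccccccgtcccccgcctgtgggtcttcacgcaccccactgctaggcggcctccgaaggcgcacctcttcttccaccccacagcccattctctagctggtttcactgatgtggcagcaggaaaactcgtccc

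The Tap1 window overlaps that of the immunoproteasome gene Psmb9: the windows of these genes share 275 bases on opposite strands, chr17:34187306-34187580, and its Y box lies at positions -222 to -215 from the start of Tap1 and -11 to -4 from that of Psmb9. The neighbouring genes of this stretch of chromosome 17, Psmb9, Tap1, Psmb8 and Tap2, all rose with both stimuli in the array-set fit. Of the 28 genes of the MHC group, 23 lie on chromosome 17. The Y box was in the windows of 9 of 18 MHC genes, 4 of 35 proteasome genes and 4.1% of all 32851 windows. It was in windows of genes that rose (Tap1, H2-Q6, H2-Q7 and H2-Oa) and of genes that were not called (H2-Aa, H2-Eb1, H2-T23, H2-M9 and H2-M10.1). The response element was in the windows of B2m and H2-T23 and of 4 proteasome genes, Psmb3, Psmd4, Psmd9 and Psme1, and in 3.44% of all windows. The gamma-activated site was in H2-DMb2, H2-M3, Psmb8, Psmd2 and Psmg1 and in 8.3% of all windows, and the kappaB site in B2m and Psme3ip1 and in 1.63% of all windows. Only these exact strings were searched. Near matches, such as ggggattcccc in the H2-Q6 window, are not marked or counted, so a gene without a match may hold a related site. A match is a description of the sequence, and binding was not measured.

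Of 10 class II genes, only H2-Oa was called, with either stimulus and in either fit. The median difference of the 10 was 0.29 with LPS and 0.17 with poly(I:C). H2-Oa, a chain of the factor that restrains peptide exchange on class II, read 3.02 and 1.93 with LPS, 2.75 and 2.13 with poly(I:C), and 0.78 and -1.29 without treatment. The differences were 2.73 (SE 0.59, adjusted p = 0.0088) and 2.69 (SE 0.59, adjusted p = 0.0090), and without the array titled untreated 2 they were 1.69 and 1.66. Its partner H2-Ob was dim, at -1.10 and -3.87 with LPS, -1.85 and -2.99 with poly(I:C), and -1.34 and -3.18 without treatment, where -3.87 is the floor of the scale.

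Ciita, the master regulator of class II genes, read 2.16 and 1.75 with LPS, 1.41 and 1.45 with poly(I:C), and 1.47 and 1.11 without treatment. Its differences were 0.67 (SE 0.36, adjusted p = 0.40, array-set fit 0.17) and 0.15 (SE 0.36, adjusted p = 0.96). The chains of the class II molecule were bright in all groups. H2-Aa read 6.89 and 7.26 with LPS, 6.64 and 7.02 with poly(I:C), and 6.86 and 6.78 without treatment, and all 6 values lay between 6.64 and 7.26. H2-Ab1 had differences of 0.53 (SE 0.53) and 0.61 (SE 0.53), H2-Eb1 of 0.29 (SE 0.50) and 0.19 (SE 0.50), and the invariant chain Cd74, which guards the peptide groove until the endosome, of 0.29 (SE 0.61) and 0.86 (SE 0.61). H2-DMa, a chain of the peptide exchange factor, was at -0.45 (SE 0.58) and -0.53 (SE 0.58). The lowest adjusted p of these 5 genes in the fit without a block was 0.59. H2-DMb2 lay at the floor on 5 of the 14 arrays, and no fold is given for it. C57BL/6 mice are known to carry a deletion at the start of H2-Ea and to make no E alpha chain. Its probe read 0.98 to 2.83 over the 14 arrays and was not called.

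The summed linear intensity of 10 measured B cell markers was 71 and 63.1 on the LPS arrays, 46 and 49.4 on the poly(I:C) arrays, and 42.7 and 42.5 on the untreated arrays, and that of 4 dendritic cell markers 45.5 and 26 with LPS, 48 and 27.6 with poly(I:C), and 53.5 and 24.4 without treatment. Bright genes weigh most in such sums. Blnk, the brightest B cell marker, had means of 4.97 with LPS, 4.5 with poly(I:C) and 4.11 without treatment, and Itgax was the brightest dendritic cell marker. None of the B cell markers was at the floor on any array, and none was called without a block. The array-set fit called 2 of 10 higher with LPS, where 9.59% of all probes were. With poly(I:C) it called 1 higher and 2 lower, where 10.6% and 8.03% of all probes were. Of the dendritic cell markers, 1 of 4 was called higher with each stimulus in either fit, with list medians of 1.29 and 1.11. Without a block 5.21% and 6.08% of all probes were called higher. Fscn1 had means of 3.31 with LPS, 3.25 with poly(I:C) and 0.54 without treatment, where the brighter Itgax had 4.56, 4.7 and 5.1. The part of these cells in the class II and co-stimulation values was not tested.

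The proteasome genes that passed the test in the array-set fit with either stimulus included the inducible subunits Psmb8, Psmb9 and Psmb10 and the activator genes Psme1 and Psme2. LPS raised 3 of 40 genes without a block and 9 in the array-set fit, and poly(I:C) raised 4 and 9, with none lower in either comparison or fit. The share of all probes called higher was 5.21% and 9.59% for LPS and 6.08% and 10.6% for poly(I:C). The median difference was 0.41 with LPS and 0.55 with poly(I:C). Under quantile normalization of the arrays these medians were 0.18 and 0.16, while the median of all probes moved to -0.08 in both comparisons, so the small positive values of the many proteasome genes that were not called depend on the scaling.

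**Figure D3:**
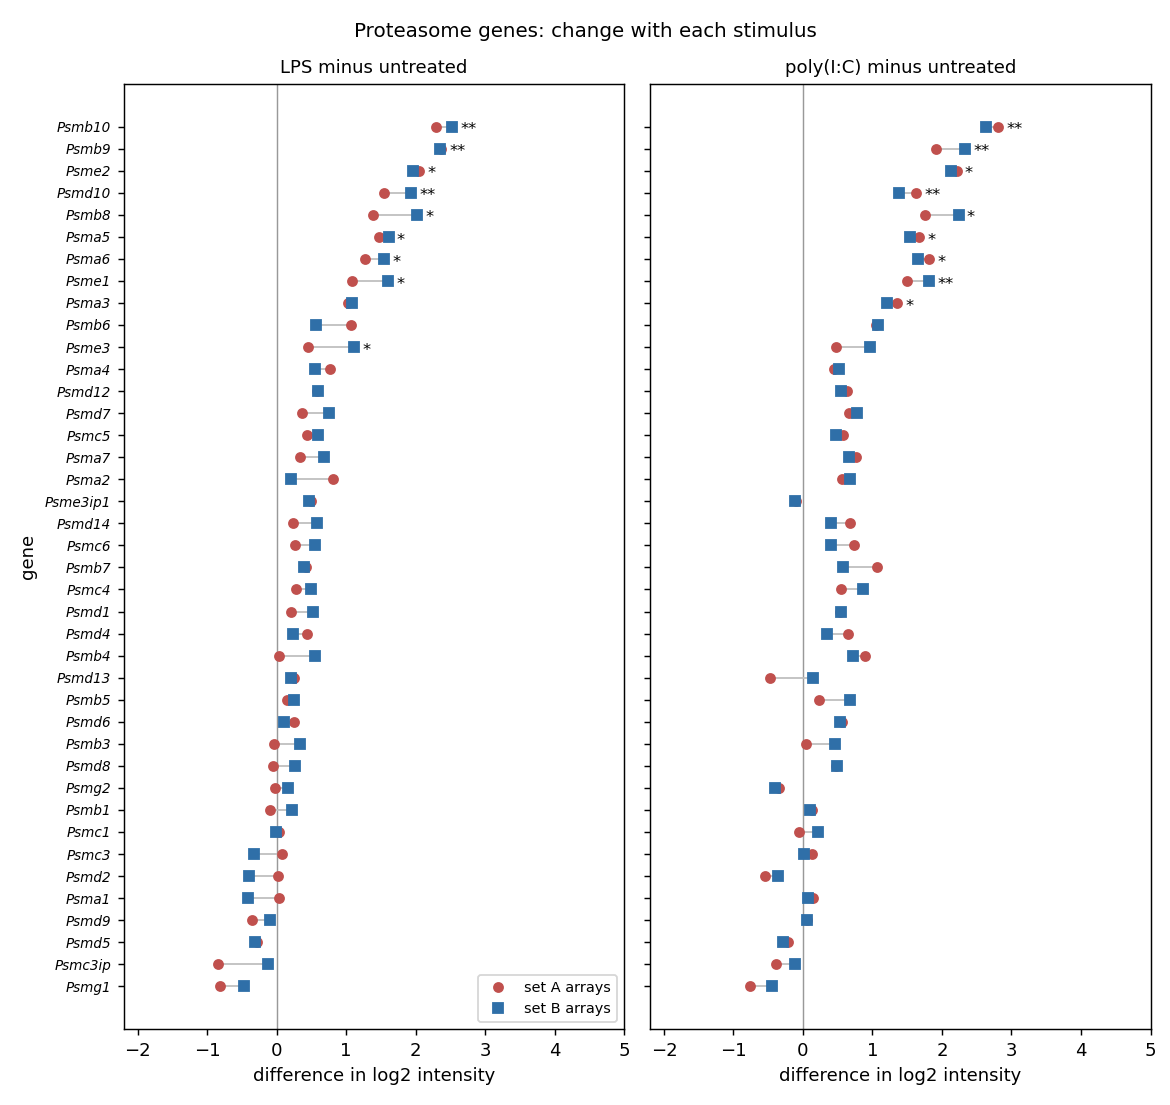
Difference in log2 intensity of each of the 40 proteasome genes, for LPS (left) and poly(I:C) (right) minus untreated. Circles are set A arrays and squares set B arrays, a double asterisk marks genes called without a block and a single asterisk those called in the array-set fit only. Psmb10 and Psmb9 lie at 1.92 or above on both sets in both panels, and most genes of the core and of the regulatory particle lie below 1.

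All 3 immunoproteasome genes rose in the array-set fit. Psmb10 read 8.32 and 8.0 with LPS, 8.84 and 8.10 with poly(I:C), and 6.03 and 5.47 without treatment. The stimulated arrays did not overlap with the untreated ones. With each stimulus 16 of the 40 proteasome genes were higher without overlap, and 2041 and 1937 of the 9584 tested probes were. The differences of Psmb10 were 2.41 (SE 0.44, adjusted p = 0.0030), or 5.3-fold, and 2.72 (SE 0.44, adjusted p = 0.0010), or 6.6-fold. Psmb9 read 7.11 and 5.98 with LPS, 6.66 and 5.96 with poly(I:C), and 4.74 and 3.63 without treatment, a difference of 2.36 (SE 0.51, adjusted p = 0.0085) and 2.13 (SE 0.51, adjusted p = 0.016). Psmb8 read 8.42 and 7.27 with LPS, 8.78 and 7.49 with poly(I:C), and 7.03 and 5.24 without treatment. Its differences of 1.71 (SE 0.67) and 2.00 (SE 0.67) were called in the array-set fit (adjusted p = 0.0049 and 0.0015) and not without the block (0.17 and 0.090). When the array titled untreated 2 was left out they were 1.24 and 1.53 in the array-set fit and 0.81 and 1.10 without a block, and without LPS 1 the difference with LPS was 1.13 without a block.

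The constitutive subunits that these replace were not called. Psmb5, the counterpart of Psmb8, read 6.26 and 4.99 with LPS, 6.34 and 5.41 with poly(I:C), and 6.11 and 4.74 without treatment, and the sets differed by more than the treatments. The differences of Psmb5, Psmb6 and Psmb7 were 0.20, 0.82 and 0.41 with LPS and 0.45, 1.07 and 0.81 with poly(I:C), and their adjusted p-values were 0.35 or higher. The contrast within an array does not depend on a shift of the whole array. Psmb8 changed relative to Psmb5 by 1.25 and 1.77 on the log2 scale with LPS and by 1.52 and 1.58 with poly(I:C), in set A and set B. Psmb9 relative to Psmb6 changed by 1.30 and 1.78 with LPS and by 0.87 and 1.25 with poly(I:C), and Psmb10 relative to Psmb7 by 1.86 and 2.12 with LPS and by 1.75 and 2.07 with poly(I:C). All 12 of these values were above 0.

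Of the activator genes, Psme1 and Psme2, which form the interferon-inducible ring on the core, read 6.37 and 5.93, and 9.25 and 7.55, with LPS. They read 6.79 and 6.16, and 9.41 and 7.72, with poly(I:C), and without treatment 5.28 and 4.33, and 7.20 and 5.59. Psme1 was higher by 1.34 with LPS (SE 0.42, adjusted p = 0.071, array-set fit 0.010) and by 1.66 with poly(I:C) (SE 0.42, adjusted p = 0.021). Psme2 had differences of 2.00 (SE 0.71) and 2.17 (SE 0.71), called in the array-set fit (adjusted p = 0.00048 and 0.00022) and not without the block (0.12 and 0.082). Without a block these were 1.20 and 1.37 when untreated 2 was left out, 1.15 without LPS 1 and 1.32 without poly(I:C) 1, while in the array-set fit they stayed between 1.69 and 2.32 and between 1.86 and 2.48. For Psme1 with LPS the difference without untreated 2 was 0.95 in the array-set fit and 0.87 without a block. Psme3, which forms a nuclear activator ring, was at 0.78 with LPS (adjusted p = 0.038 in the array-set fit) and 0.72 with poly(I:C) (0.052).

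Of 7 alpha subunit genes, none was called without a block. The array-set fit called Psma5, at 1.54 with LPS (adjusted p = 0.0025) and 1.61 with poly(I:C) (0.0017), Psma6, at 1.41 (0.0051) and 1.74 (0.0011), and Psma3 with poly(I:C) alone, at 1.28 (0.030), against 1.05 with LPS (0.076). Fits without a block gave lower differences when untreated 2 was left out, at 0.99 and 1.05 for Psma5, 0.84 with LPS for Psma6 and 0.81 with poly(I:C) for Psma3, and, with poly(I:C), when poly(I:C) 1 was left out, at 0.99 for Psma5, 1.07 for Psma6 and 0.74 for Psma3. Psma1, Psma2, Psma4 and Psma7 lay between -0.19 and 0.66 with LPS and between 0.11 and 0.72 with poly(I:C). None of 6 constitutive beta subunit genes was called in either fit, with medians of 0.24 with LPS and 0.63 with poly(I:C). Whether the groups of subunits differ from each other was not tested.

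The regulatory particle that caps the core and unfolds its substrates had 1 called gene. None of the 5 ATPase genes Psmc1, Psmc3, Psmc4, Psmc5 and Psmc6 was called, with differences of -0.12 to 0.52 with LPS and 0.08 to 0.71 with poly(I:C). Of 12 non-ATPase and chaperone genes, Psmd10 was called. It encodes gankyrin, a chaperone of the assembly of the ATPase ring, and read 5.98 and 5.91 with LPS, 6.06 and 5.36 with poly(I:C), and 4.43 and 3.97 without treatment. It rose by 1.74 (SE 0.36, adjusted p = 0.0072) and 1.51 (SE 0.36, adjusted p = 0.017). The other 11, among them the scaffold subunits Psmd1 and Psmd2, the ubiquitin receptor Psmd4 and the deubiquitinase Psmd14, lay between -0.29 and 0.59 with LPS and between -0.45 and 0.72 with poly(I:C). The assembly chaperones Psmg1 and Psmg2 were at -0.64 and 0.06 with LPS and at -0.60 and -0.37 with poly(I:C), neither called.

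Among the proteasome calls without a block, Psmb10 stayed called with both stimuli whichever array was left out. Psmb9 and Psmd10 lost the call with LPS without LPS 1 or untreated 2, and with poly(I:C) without poly(I:C) 1 or untreated 2, and Psme1 lost it with poly(I:C) without the same arrays. Of the 9 array-set calls of each stimulus, 5 held with LPS and 8 with poly(I:C) whichever array was left out. With LPS, Psmb8 and Psma6 lost the call without LPS 1 or untreated 2 (adjusted p = 0.053 to 0.089), Psme1 without these or LPS 2 (0.053 to 0.14), and Psme3 without any of the 4 (0.053 to 0.31). Psma3 lost the poly(I:C) call without untreated 1, untreated 2 or poly(I:C) 1 (0.052 to 0.30).

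Of 12 other measured genes of antigen processing, Erap1, the peptidase that trims peptides in the endoplasmic reticulum, was called with LPS at 1.61 (SE 0.35, adjusted p = 0.0087), and was at 1.17 with poly(I:C) (SE 0.35, adjusted p = 0.051, array-set fit 0.0079). Mr1, a class I-like molecule that presents microbial metabolites, was called lower with poly(I:C) at -2.00 (SE 0.49, adjusted p = 0.018), and was at -1.28 with LPS (adjusted p = 0.16, array-set fit 0.038). Cd1d1, which presents lipids, was called in the array-set fit with poly(I:C), at 1.31 (adjusted p = 0.013). The chaperones Calr, Canx and Pdia3 and the lysosomal proteases and reductase Ctss, Ctsl, Ctsb, Ctsd, Lgmn and Ifi30 were not called in either fit. Of 4 measured co-stimulatory and ligand genes, 3 rose with each stimulus: Cd40 by 6.78 and 6.61, Tnfsf9 by 3.88 and 4.35 and Cd274 by 3.14 and 3.61 with LPS and poly(I:C). Of 6 regulators, Irf1, an interferon-induced transcription factor of class I genes, rose by 3.29 with LPS (SE 0.48, adjusted p = 0.00045) and 3.90 with poly(I:C) (SE 0.48, adjusted p = 9.1e-05), and Nfe2l1, which drives proteasome genes when the proteasome is impaired, was at 1.26 (adjusted p = 0.13, array-set fit 0.032) and 1.45 (0.069, or 0.014). None of 4 proteasome partner genes was called in either fit.

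Poly(I:C) was compared with LPS directly. No gene of either group was called by limma in either fit. Over all probes 0.0104% were called without a block and 0.0209% in the array-set fit. No gene of either group had an unadjusted p under 0.05, where 52 and 301 of the 9584 tested probes did in these fits. The largest differences in the MHC group were -0.63 and 0.57 and in the proteasome group -0.57 and 0.52. For Tap1 the difference was 0.14 with a 95% interval of -1.05 to 1.33, for H2-Q6 0.51 (-0.23 to 1.26), for Psmb9 -0.23 (-1.32 to 0.86) and for Psmb10 0.32 (-0.64 to 1.27). These intervals leave room for differences of about the size of the smaller called changes. Ciita was at 1.41 and 1.45 with poly(I:C) and at 2.16 and 1.75 with LPS, a difference of -0.52 (SE 0.36, adjusted p = 1).

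The next comparison asked what GW3965 changed in stimulated cells. Most MHC genes read lower with GW3965, none was called without a block, and the array-set fit called H2-T10. With LPS, 23 of 28 MHC genes had a difference below 0, with a median of -0.44, and 25 of 40 proteasome genes, with a median of -0.18. Under poly(I:C), 22 of 28 MHC genes were below 0, with a median of -0.45, and 28 of 40 proteasome genes, with a median of -0.23. The medians of all probes were 0.03 with LPS and -0.10 with poly(I:C), and 4570 and 5712 of the 9584 tested probes were below 0. limma called none of the 68 genes without a block in either comparison, where it called 0.0313% and 0.0104% of all probes. Unadjusted p-values under 0.05 numbered 2 in the MHC group and 1 in the proteasome group with LPS, and none with poly(I:C). Over all 9584 tested probes they numbered 298 with LPS and 143 with poly(I:C). Under the set block 1 gene was called with LPS and none with poly(I:C), where 0.407% and 0.073% of all probes were called.

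These lower values were larger on set A, whose bright probes were lower as a whole. The median of the MHC group was -0.65 on set A and -0.11 on set B with LPS, and -0.43 and -0.34 with poly(I:C). The median of the proteasome group was -0.38 on set A and 0.08 on set B with LPS, and -0.55 and 0 with poly(I:C). Under quantile normalization the proteasome medians were 0.05 with LPS and 0.06 with poly(I:C), and the MHC medians -0.29 and -0.24. The lower proteasome values thus turned sign with the scaling, and the MHC medians did not. The summed B cell markers were 50.2 and 58.1 with GW3965 and LPS and 71 and 63.1 with LPS, and 38.8 and 41.4 with GW3965 and poly(I:C) and 46 and 49.4 with poly(I:C). The summed dendritic cell markers were 21.2 and 21.4 with GW3965 and LPS and 45.5 and 26 with LPS, and 21.9 and 20.9 with GW3965 and poly(I:C) and 48 and 27.6 with poly(I:C). The summed neutrophil markers were 17.9 and 20.4 with GW3965 and LPS and 46.7 and 31.5 with LPS, and 16.3 and 16.7 with GW3965 and poly(I:C) and 50.9 and 24 with poly(I:C). These groups did not overlap, and pooled over both stimuli the array-set fit called S100a8 lower at -1.07 (adjusted p = 0.048) and Camp at -1.29 (adjusted p = 0.024), 2 of 5 tested, with none called without a block. These 2 bright genes make up most of the neutrophil sums. Under each stimulus 4 of 5 tested markers were below 0. The dim Elane had a mean of -2.29 with GW3965 and LPS against -3.06 with LPS. Ngp had -1.66 with GW3965 and poly(I:C) against -2.15 with poly(I:C). All 6 macrophage markers had a difference below 0 with GW3965 under each stimulus, with medians of -0.27 with LPS and -0.34 with poly(I:C), and none was called in either fit. Their sums were 1910 and 1590 with GW3965 and LPS and 2730 and 1760 with LPS, and 1790 and 1380 with GW3965 and poly(I:C) and 2770 and 1650 with poly(I:C). The part of these cells in the MHC and proteasome values was not tested.

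**Figure D4:**
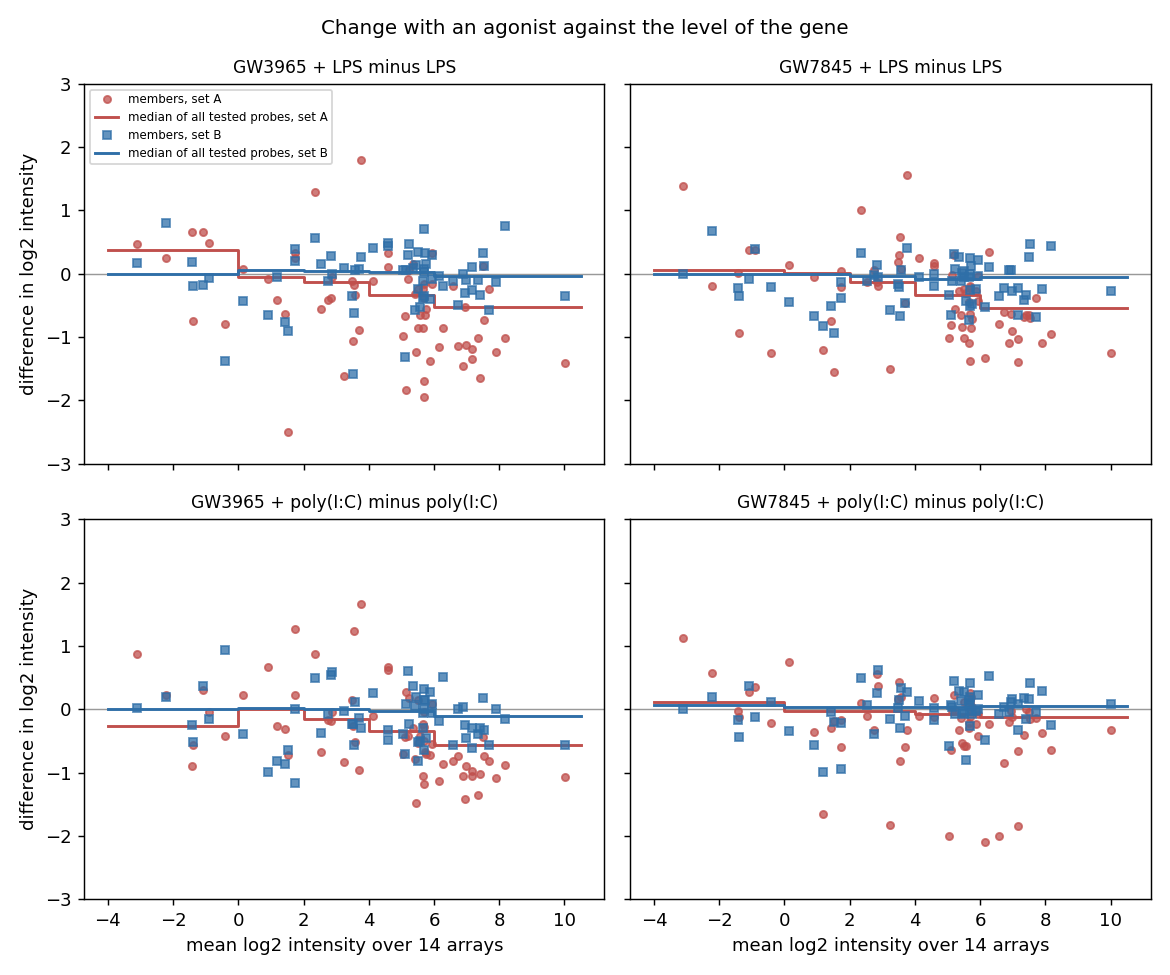
Difference in log2 intensity with an agonist against the mean log2 intensity over 14 arrays, for the 68 genes (circles on set A, squares on set B), with the median of all tested probes in each range of brightness as lines. Above a mean of 6 the set A line lies at -0.52, -0.55 and -0.57 in 3 of the 4 panels and at -0.12 for GW7845 with poly(I:C), while the set B line stays between -0.10 and 0.05.

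H2-T10 read 2.57 and 2.40 with GW3965 and LPS and 3.65 and 3.98 with LPS. The groups did not overlap, where 1174 of the 9584 tested probes were lower without overlap. The difference of H2-T10 was -1.32 (SE 0.31), at -1.07 on set A and -1.58 on set B. The adjusted p was 0.31 without a block and 0.034 in the array-set fit, 0.044 with quantile normalization and the set as a block, and 0.074 to 0.30 in the array-set fit when each of the 4 arrays was left out. H2-T10 read 3.80 and 3.94 with GW3965 and poly(I:C) and 4.07 and 4.17 with poly(I:C) alone, a difference of -0.25 (SE 0.31, adjusted p = 1). The difference between the effects was 1.07 (SE 0.43), with an adjusted p of 1. Pooled over both stimuli it was -0.79 (SE 0.22, adjusted p = 0.39, array-set fit 0.043).

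Other genes of the groups were lower with GW3965 on both sets without a call. Cd86 read 5.16 and 5.09 with GW3965 and LPS and 5.83 and 6.42 with LPS, a difference of -0.99 (SE 0.47, adjusted p = 1, array-set fit 0.24), and was at -0.57 with poly(I:C). H2-Oa read 0.52 and 1.04 with GW3965 and LPS and 3.02 and 1.93 with LPS, at -1.70 (SE 0.59, adjusted p = 1, array-set fit 0.15), and was at -0.68 with poly(I:C). Psmb9 read 5.40 and 5.62 with GW3965 and LPS and 7.11 and 5.98 with LPS, at -1.03 (SE 0.51), and was at -0.91 with poly(I:C). Pooled over both stimuli, Psmb9 was at -0.97 (adjusted p = 0.85, array-set fit 0.072), B2m at -0.85 (0.93, or 0.087) and Cd86 at -0.78 (1, or 0.10). Tap1 was at -0.40 with LPS and 0.34 with poly(I:C), and Tap2 at -0.60 and -0.46. In the pooled comparison 0 genes of either group were called without a block, where 0.198% of all probes were. In that fit 7 MHC and 2 proteasome genes had an unadjusted p under 0.05, as did 431 of the 9584 tested probes. In the array-set fit H2-T10 was the 1 called gene, where 1.15% of all probes were called.

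Psmd5, a chaperone of the assembly of the regulatory particle, read higher with GW3965 and was picked out after its values were seen. It read 2.97 and 2.75 with GW3965 and LPS and 1.68 and 2.18 with LPS, and 2.62 and 2.69 with GW3965 and poly(I:C) and 1.74 and 2.19 with poly(I:C). The groups did not overlap in either comparison, where 1166 and 794 of the 9584 tested probes were higher without overlap. The differences were 0.93 (SE 0.38) and 0.69 (SE 0.38), and pooled 0.81 (SE 0.27, adjusted p = 0.65, array-set fit 0.091). It did not pass.

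With GW7845 no gene of either group was called in either fit, with LPS or with poly(I:C), where limma called 0% of all probes. The MHC group had a median of -0.52 with LPS and -0.28 with poly(I:C), and the proteasome group -0.17 and 0. The medians of all probes were -0.04 and 0.03. Unadjusted p-values under 0.05 numbered 2 MHC genes and no proteasome gene with LPS, and 4 MHC genes and no proteasome gene with poly(I:C), without a block. In the array-set fit they numbered 9 and 4 with LPS and 7 and none with poly(I:C). Over all 9584 tested probes they numbered 138 with LPS and 83 with poly(I:C) without a block. In the array-set fit those numbers were 569 and 362. Pooled over both stimuli, none of the 68 genes was called in either fit, where 0% and 0.0104% of all probes were.

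Most class II genes read lower with GW7845, 8 of 10 under each stimulus, where 5113 and 4479 of the 9584 tested probes did. The class II median was -0.65 with LPS and -1.02 with poly(I:C). The medians were -0.30 and -0.12 for class I chains and -0.68 and -0.23 for the 2 co-stimulatory genes. With GW3965 7 of 10 class II genes were below 0 under each stimulus, where 4570 and 5712 of the 9584 tested probes were. The class II medians with GW3965 were -0.36 with LPS and -0.54 with poly(I:C). The agonists were not compared with each other directly. Ciita read 0.96 and 0.93 with GW7845 and LPS and 2.16 and 1.75 with LPS. It read -0.23 and 0.47 with GW7845 and poly(I:C) and 1.41 and 1.45 with poly(I:C) alone. The groups did not overlap in either comparison, where 1054 and 645 of the 9584 tested probes were lower without overlap. All 4 arrays with GW7845 lay below all 4 arrays of the stimuli alone, as they did for 102 of the tested probes. The differences were -1.01 (SE 0.36) and -1.32 (SE 0.36), each with an adjusted p of 1 without a block. Pooled over both stimuli the difference was -1.16 (SE 0.26, unadjusted p = 0.0005, adjusted p = 1, array-set fit 0.10), at -1.42 on set A and -0.91 on set B. It therefore did not pass. With GW3965 Ciita was at -0.24 with LPS and -0.53 with poly(I:C).

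**Figure D5:**
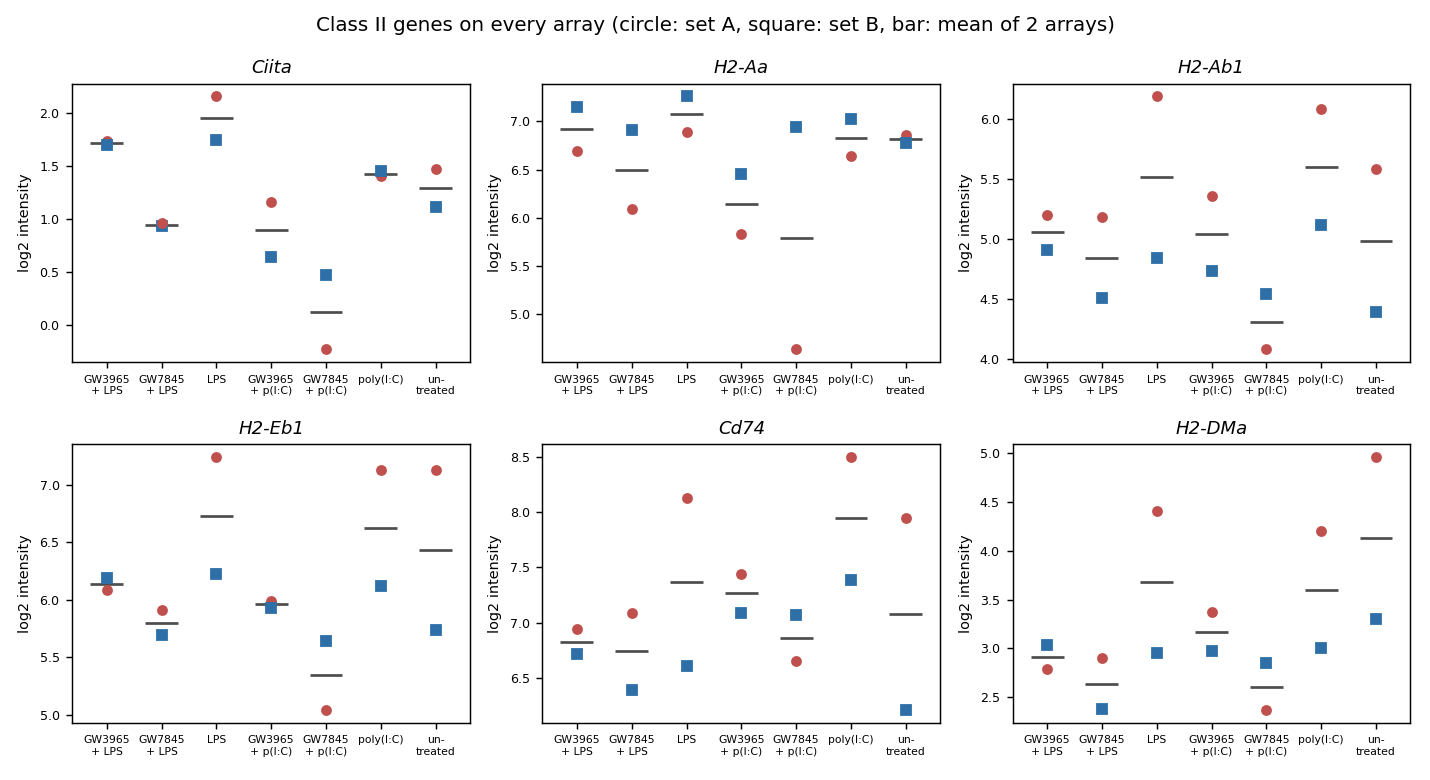
Log2 intensity of 6 class II genes on each of the 14 arrays, by group. Circles are set A arrays, squares set B arrays and bars the mean of the 2. Ciita is at 0.96 or below on the 4 arrays with GW7845 and at 1.41 or above on the LPS and poly(I:C) arrays, and H2-Aa, H2-Ab1, H2-Eb1 and H2-DMa are lowest on the set A array of GW7845 with poly(I:C).

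The chains of the class II molecule were lower too, with a wide gap between the sets. H2-Eb1 read 5.91 and 5.69 with GW7845 and LPS and 7.24 and 6.22 with LPS, and 5.04 and 5.64 with GW7845 and poly(I:C) and 7.13 and 6.12 with poly(I:C). Neither pair of groups overlapped, and the differences were -0.93 (SE 0.50) and -1.28 (SE 0.50). H2-Ab1 was at -0.67 and -1.29, Cd74 at -0.63 and -1.08, H2-DMa at -1.04 and -0.99, and H2-Aa at -0.58 and -1.04 with LPS and poly(I:C), each with an adjusted p of 1. With poly(I:C) the median of the class II genes was -1.74 on set A and -0.26 on set B, and for H2-Aa the sets gave -2.00 and -0.08. The difference is thus mostly that of 1 pair of arrays, poly(I:C) 1 and GW7845 + poly(I:C) 1, for these genes. Bright probes as a whole were at -0.12 on that pair. With GW7845 and LPS the class II median was -1.02 on set A and -0.36 on set B. Bright probes as a whole were there at -0.55 and -0.06. With GW3965 and poly(I:C) the median of the class II genes was -0.72 on set A and -0.34 on set B. On the array GW7845 + poly(I:C) 1 the summed B cell markers were 32.3 and the summed dendritic cell markers 14.7, against 46 and 48 on poly(I:C) 1. On the set B pair the B cell sums were 54.3 with GW7845 and 49.4 with poly(I:C) alone, and the dendritic cell sums 22.8 and 27.6. The part of those cells in the class II values was not tested.

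No gene of class I loading or the immunoproteasome was called with GW7845. Tap2 was at -0.38 with LPS and -0.69 with poly(I:C) (pooled -0.53, SE 0.22, adjusted p = 1), Tap1 at -0.05 and -0.55, and H2-Q6 at -0.25 and -0.11. Psmb9 was at -0.94 with LPS, at -1.38 on set A and -0.51 on set B, and at 0.00 with poly(I:C), and the difference between these effects was 0.95 (SE 0.72, adjusted p = 1). Psmb10 was at -0.53 and -0.09 and Psmb8 at -0.49 and -0.07. Under quantile normalization the proteasome medians with GW7845 were 0.06 with LPS and 0.02 with poly(I:C), and the MHC medians -0.31 and -0.21.

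Whether an agonist acted differently under the 2 stimuli was tested as an interaction. None of the 68 genes was called for GW3965 or GW7845 in either fit, where 0% of all probes were. Without a block 1 gene (H2-T10) had an unadjusted p under 0.05 for GW3965 and none for GW7845. In the array-set fit it was 1 each (H2-T10 and H2-M3). Over all 9584 tested probes there were 29 for GW3965 and 46 for GW7845 without a block. In the array-set fit there were 274 and 281.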

How the data were processed

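The authors deposited 1 linear intensity per probe and array, scaled before deposit so that each array's median was 1 (1.0007 on 1 array). The sources used here name no scaling method, scanner or background correction. Total RNA was labelled with biotin by in vitro transcription, per the labels' protocols. Of 10012 probes, 8983 had 1 gene symbol in the platform annotation, 1 several and 1028 none. Arrays were grouped by title.

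Values were raised to a floor (5th percentile of positive values, 0.0686) and the log2 was taken. Probes above their array's 20th percentile on at least 2 arrays were tested (9584). limma 3.58.1 under R 4.3.3 fitted group means to 14 arrays, with an intensity trend and two-sided tests, leaving 7 residual degrees of freedom, or 6 with the array set as a block. Precision is limited by having 2 arrays a group. The script was tested on simulated data.

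The members and lists were chosen with earlier results of these data known. All members are accounted for, and those named are the loading, immunoproteasome, class II and co-stimulatory genes, each called gene, and genes at the floor. The functional groups, the cut between array sets (10th percentile of intensity of 0.1), the brightness ranges and the 4 motifs, taken from a wider search, were chosen after values were seen. Promoter windows are from RefSeq (GRCm38.p6). Alternatives covered the blocks, normalization, floor, filters, variance model and arrays in the fit.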

Additional observations from a re-analysis of the deposited data

How the results depend on the processing

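The single genes recomputed under these alternatives were those called in a comparison without a block or in the array-set fit. For the agonists this was H2-T10 alone. None of their differences changed sign, which was likely in advance for called genes, and the other genes were not followed singly. Medians of the groups did change sign. Under quantile normalization the proteasome median became 0.05 for GW3965 with LPS (against -0.18), 0.06 for GW3965 with poly(I:C) (-0.23), 0.06 for GW7845 with LPS (-0.17) and 0.05 for GW7845 pooled (-0.10). Without LPS 1 and without a block it was 0.17, 0.11 and 0.05 for GW3965 with LPS, GW7845 with LPS and GW7845 pooled, and without poly(I:C) 1 it was 0.15 for GW3965 with poly(I:C) and 0.08 for GW7845 pooled, and the medians of all probes were then 0.21, 0.16, 0.09, 0.14 and 0.11. Without GW3965 + LPS 1 it was 0.04 in the array-set fit, and without GW7845 + poly(I:C) 2 it was 0.06 for GW7845 pooled without a block. For poly(I:C) against LPS, the MHC median of -0.02 lay between 0.05 and 0.39 and the proteasome median of 0.16 at -0.29 and -0.23 in the fits without 1 array that turned them. Counts of called genes that moved by over 1.5 times were these. Without a block LPS raised 10 MHC genes, and 5 were called when only the arrays of the groups compared entered the fit. For the proteasome group with LPS the count of 3 became 9 with the array set as a block, 6 with quantile normalization, 9 with both and 0 in the fit of the compared groups alone. With poly(I:C) the count of 4 became 9, 8, 8 and 1. Calls in either direction over all 9584 tested probes moved too in these 4 fits. With LPS 748 became 1703, 894, 1684 and 410, and with poly(I:C) 849 became 1788, 983, 1828 and 457. With the replicate block, the replicate numbers as a pairing, the proteasome counts were 8 with LPS and 9 with poly(I:C). Over all probes 1067 and 1191 were called, and no other count of calls moved by over 1.5 times with that block. Same-numbered arrays deviated together (r over 0.1) in 15 of 21 pairs (r -0.54 to 0.67), and arrays of one set in 21 of 21 (0.35 to 0.67). The pairs with a negative r were those with GW7845 with LPS, the group whose array 1 lies in set B. The sets were cut from the low end of these same values, so agreement within a set was partly built in. Which preparations belong together cannot be told from these values. For GW3965 with LPS the MHC count of 0 became 1 with the array set as a block, with quantile normalization and that block, and in the fit of the compared groups alone. All tested probes gave 39, 35 and 61 calls in these fits, against 3. For GW3965 pooled over both stimuli the MHC count became 1 with the array set as a block, where all tested probes gave 110 calls, against 19. Fewer residual degrees of freedom remain in the fit of the compared groups alone. For the other moves the cause was not tested.

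Leaving out 1 array at a time, without a block, gave 5 to 9 MHC and 1 to 4 proteasome calls with LPS and 6 to 9 and 1 to 7 with poly(I:C). With the array set as a block it gave 11 to 13 and 5 to 8 with LPS, 10 to 12 and 8 to 9 with poly(I:C), 0 to 1 and 0 to 2 for GW3965 with LPS, 0 to 3 and 0 to 7 for GW3965 pooled, and 0 to 3 MHC calls for GW7845 with poly(I:C) and 0 to 4 for GW7845 pooled. The upper ends for the agonists came from fits without GW3965 + LPS 2 (1, 2, 3 and 7) or GW7845 + poly(I:C) 2 (3 and 4), in which the set A array of that group alone stood for it, and the agonist calls in those fits rest on that array.

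Quantile normalization moved the median of all probes from 0.06 to -0.08 with LPS and from 0.10 to -0.08 with poly(I:C). All probes called with poly(I:C) were then 567 higher and 416 lower, against 583 and 266, and with LPS 514 and 380, against 499 and 249. The alternatives with another floor, no filter, a stricter filter, no intensity trend, or the first GW7845 + poly(I:C) array left out kept each of these counts within 1.5 times. Single genes lost a call in 51 planned and 2 added fits and gained one in 44 and 57. The array-set combinations with quantile normalization or with an array left out were chosen after seeing the data. Without detection calls, nothing but its level shows whether a gene lay over background, which limits the values of dim genes such as Tapbp, H2-Ob and H2-DMb2.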
